A study of Mus musculus with 16 samples.

Results

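Oxidative phosphorylation is carried out by 5 protein complexes of the inner mitochondrial membrane, and the nuclear genes for their subunits were followed here across macrophages of the mouse heart and monocytes of the blood. The genes were taken by symbol: Ndufa, Ndufb, Ndufc, Ndufs and Ndufv genes of complex I, Sdha to Sdhd of complex II, Uqcr genes of complex III, Cox4 to Cox8 genes of complex IV and Atp5 genes of complex V. A gene was kept if a probe was well above background, by the scanner's own flag, on at least 4 of 16 arrays, and its brightest probe stood for it. This gave 82 genes of the 22011 measured, with 37 in complex I, 4 in complex II, 8 in complex III, 16 in complex IV and 17 in complex V. Of 85 matching symbols, Cox8c, Cox7b2 and Atp5s were left out because no array was above background. The gene nearest the limit was Ndufa4l2, above background on 12 arrays, and the other 81 genes were above background on all 16. That is 98.8% of the genes, against 66.0% of all genes measured. Among the genes counted, Atp5c1-ps is listed by RefSeq as a pseudogene, and Atp5sl carries a newer name (Dmac2) that does not denote an ATP synthase subunit. Both were counted because the rule is by symbol.

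RNA was measured on 16 Agilent 1-colour arrays, 4 for each of 4 sorted populations from C57BL/6 mice, with no treatment in any group. The macrophages were live heart cells (DAPI-) gated as CD45+ MerTK+ CD64+ Ly6cNeg. CCR2+ macrophages were CCR2Hi MHCIIHi, MHCII-high macrophages were CCR2Neg MHCIIHi CD11cLow, and MHCII-low macrophages were CCR2Neg CD11cNeg MHCII low. The comparison cells were Ly6cHi monocytes of the blood. Whether the replicates are different mice is not given in the labels used, so the p-values measure the spread between these samples, which may be technical. They also give no age or sex. The blood monocytes did not pass through digestion of the heart, so tissue handling and cell type cannot be told apart.

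Electrons from NADH enter the chain at complex I and those from succinate at complex II. They pass through ubiquinone to complex III and through cytochrome c to complex IV, which reduces oxygen, and the proton gradient built on the way drives ATP synthesis by complex V. Most subunits are encoded in the nucleus, while a small set in every complex except II is encoded by mitochondrial DNA, so complete complexes draw on both genomes. Some complex IV subunits exist as a broadly expressed and a muscle isoform encoded by separate genes. Macrophage states are known to differ in their use of oxidative phosphorylation and glycolysis.

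The labels were checked against marker lists. Of 10 macrophage markers, 6 were higher and 0 lower in the mean of the macrophage groups than in monocytes, and C1qc, a complement subunit made by tissue macrophages, was above background on all 12 macrophage arrays and on 0 monocyte arrays. All 9 measured markers of Ly6c-high monocytes were lower. In an accompanying table of processed values, 0 of 16 columns matched the scanner array of the same label and 12 matched an array of another group, so all values here are from the scanner output with its own labels. The 75th percentile of the signal was 819 to 996 on the monocyte arrays and 941 to 1670 on the macrophage arrays. Every level below is log2 signal relative to that percentile of its own array, so 0 is the percentile itself, and 1 unit is a doubling. Levels of different genes come from different probes and cannot be ranked against each other.

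Subunit RNA was lower in the heart macrophages than in blood monocytes. The median level over the 82 genes was 2.16, 1.72, 1.98 and 1.90 on the CCR2+ arrays, 2.38, 1.79, 1.99 and 1.70 on the MHCII-high arrays, 2.40, 2.01, 2.38 and 1.95 on the MHCII-low arrays, and 3.20, 2.69, 3.07 and 2.49 on the monocyte arrays. Each of the 12 macrophage arrays lay below each of the 4 monocyte arrays. Group means were 1.94 ± 0.18, 1.96 ± 0.30 and 2.19 ± 0.24 in the CCR2+, MHCII-high and MHCII-low macrophages and 2.86 ± 0.33 in the monocytes (SD, n = 4 each). In bulk RNA, fewer cells of a kind and less RNA per cell cannot be told apart, and the dimmer signal of the monocyte arrays ran with the group. Its part in the difference was not tested.

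**Figure D1:**
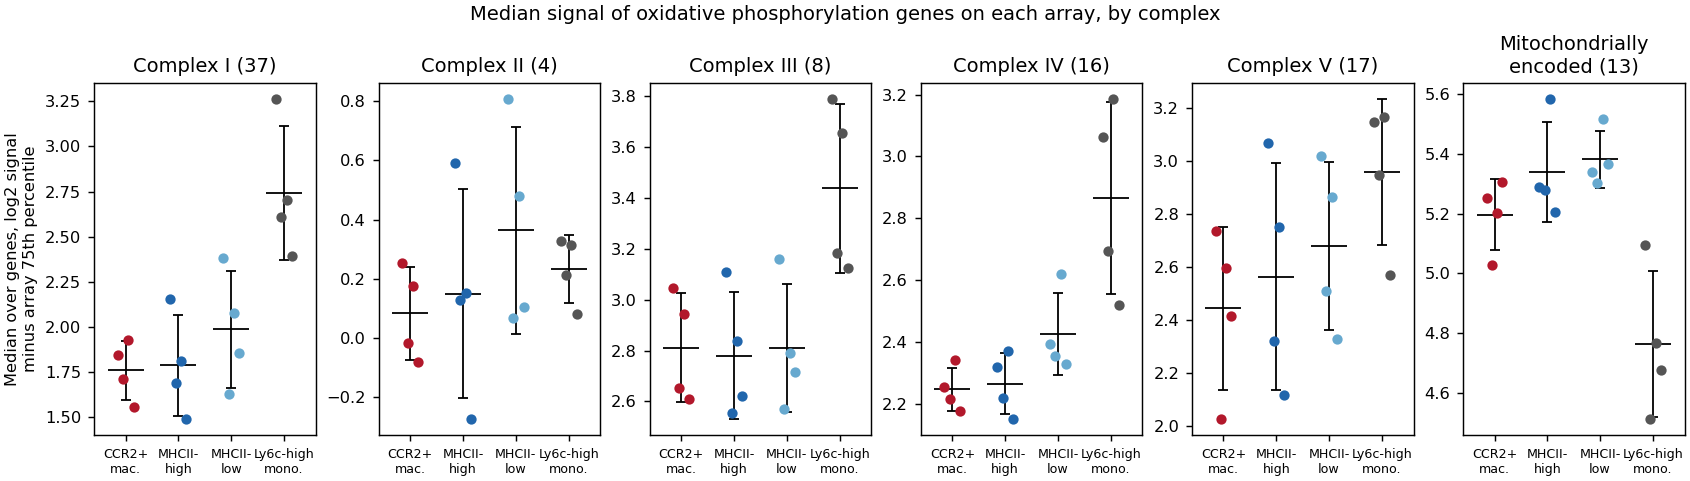
Median log2 signal over the genes of each complex and over the 13 mitochondrially encoded subunits, relative to the 75th percentile of each array, with 1 point per array, a bar at the mean of the 4 arrays of a group and whiskers of 1 SD. The complex IV panel, although titled with 16 genes, shows the median over the 13 genes without the muscle isoforms Cox6a2, Cox7a1 and Cox8b. For complex III the monocyte arrays (3.13 to 3.79) lie above the macrophage arrays (2.56 to 3.16) but for a narrow overlap, while for complex II the monocyte arrays (0.08 to 0.33) lie within the range of the macrophage arrays. The heights of different panels cannot be compared.

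Taken gene by gene, in a limma fit over all 4 groups with Benjamini-Hochberg adjustment over all genes, 61 of the 82 genes were lower and 3 were higher in the mean of the macrophage groups than in monocytes at an adjusted p under 0.05. Of all 22011 genes, 27.6% were called in this comparison, 15.2% lower and 12.4% higher. The median difference was -0.67 over the 82 genes and -0.07 over all genes, a gap of -0.60 that became -0.40 under quantile normalization and -0.28 after normexp background correction, which lowered the median of all genes to -0.23. Of the genes called over the whole array, 44.9% were higher, or 29.9% after normexp. With the comparison limited to genes above background on all 16 arrays, 62 of 81 subunit genes were lower against 21.8% of all such genes, with medians of -0.68 and -0.13. The 4 slides held 1 array of each group, and the median difference of the subunit genes on them was -0.62, -0.68, -0.81 and -0.51. For 71 genes the difference was negative on every slide. For CCR2+, MHCII-high and MHCII-low macrophages taken singly this held for 69, 67 and 62 of the 82 genes. Of all 22011 genes it held for 6153, 5355 and 5294, in the same order. For 26 genes all macrophage arrays lay below all monocyte arrays, an arrangement found in 7.95% of all genes, and for 3 genes all lay above, found in 6.29%.

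Each macrophage population was also set against the same monocytes, so the results of these comparisons share controls. In CCR2+ macrophages 53 genes were lower and 3 higher, where 21.9% of all genes were called (12.04% lower and 9.877% higher). In MHCII-high macrophages 52 were lower and 3 higher, where 21.6% were called (11.49% lower and 10.07% higher). In MHCII-low macrophages 27 were lower and 3 higher, where 21.4% were called (11.41% lower and 10.03% higher), and this count was 55 lower and 4 higher, with 32.2% of all genes called, when the slide was a block in the fit. The gene added on the higher side was Sdhc, a membrane anchor of complex II, at 0.38 (adjusted p = 0.148 without the block and 0.0339 with it, limma). Median differences were -0.73, -0.75 and -0.54. The count for CCR2+ macrophages, 56 in both directions, was 35 under median scaling or quantile normalization and 37 without CCR2+ replicate 2. In these fits 4039, 4610 and 3900 of all 22011 genes were called. In all, 26 genes were lower in each of the macrophage populations, 58 in at least 1, and 73 had a negative difference in all 3. These counts were not taken over all genes, so no share stands beside them and nothing is read from their size. Whether the MHCII-low macrophages differed from the others in their distance to monocytes was tested by comparing the macrophage populations with each other, where 0 subunit genes passed the threshold. With the slide as a block, 4 passed in CCR2+ minus MHCII-low macrophages and 0 in either other pair. By complex, 11, 11 and 6 of the 13 complex IV genes without the muscle isoforms were lower in CCR2+, MHCII-high and MHCII-low macrophages, and 11, 13 and 8 of the 17 complex V genes. With the block the MHCII-low counts were 23 of 37 in complex I, 7 of 8 in complex III, 10 of 13 in complex IV and 13 of 17 in complex V. The MHCII-high count in complex III was then 8, where 31.7% of all genes were called in that comparison.

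**Figure D2:**
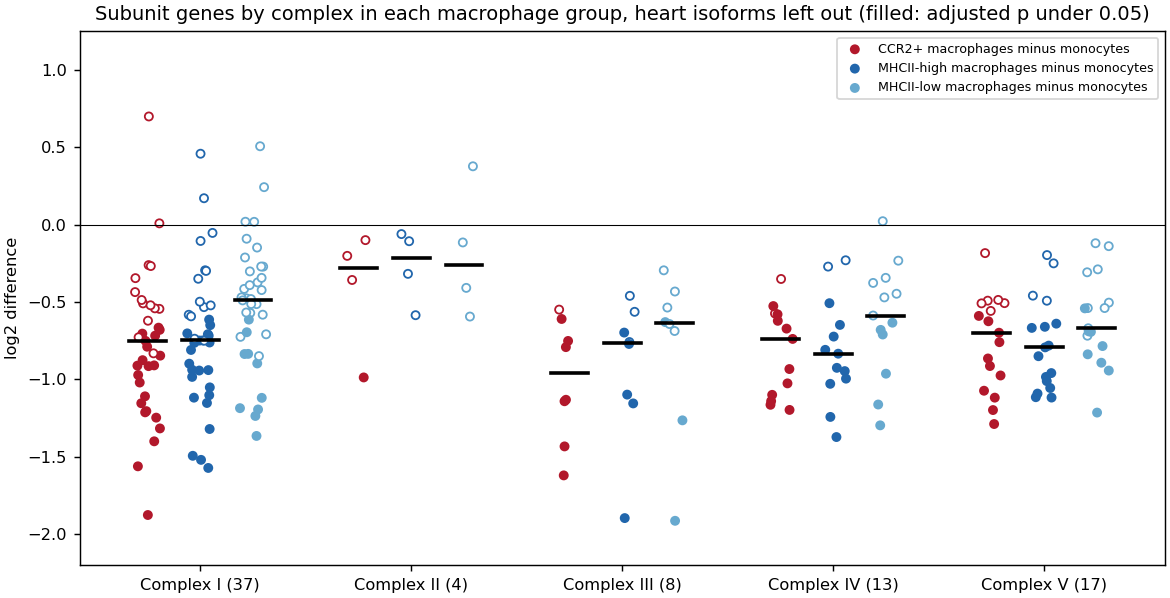
Differences (log2) of each macrophage population minus the same monocyte arrays, with 1 point per gene by complex (muscle isoforms left out), a bar at the median and filled points for an adjusted p under 0.05. Filled points make up 23 of 37 complex I genes for CCR2+, 23 for MHCII-high and 10 for MHCII-low macrophages, and 7, 5 and 3 of the 8 complex III genes.

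**Figure D3:**
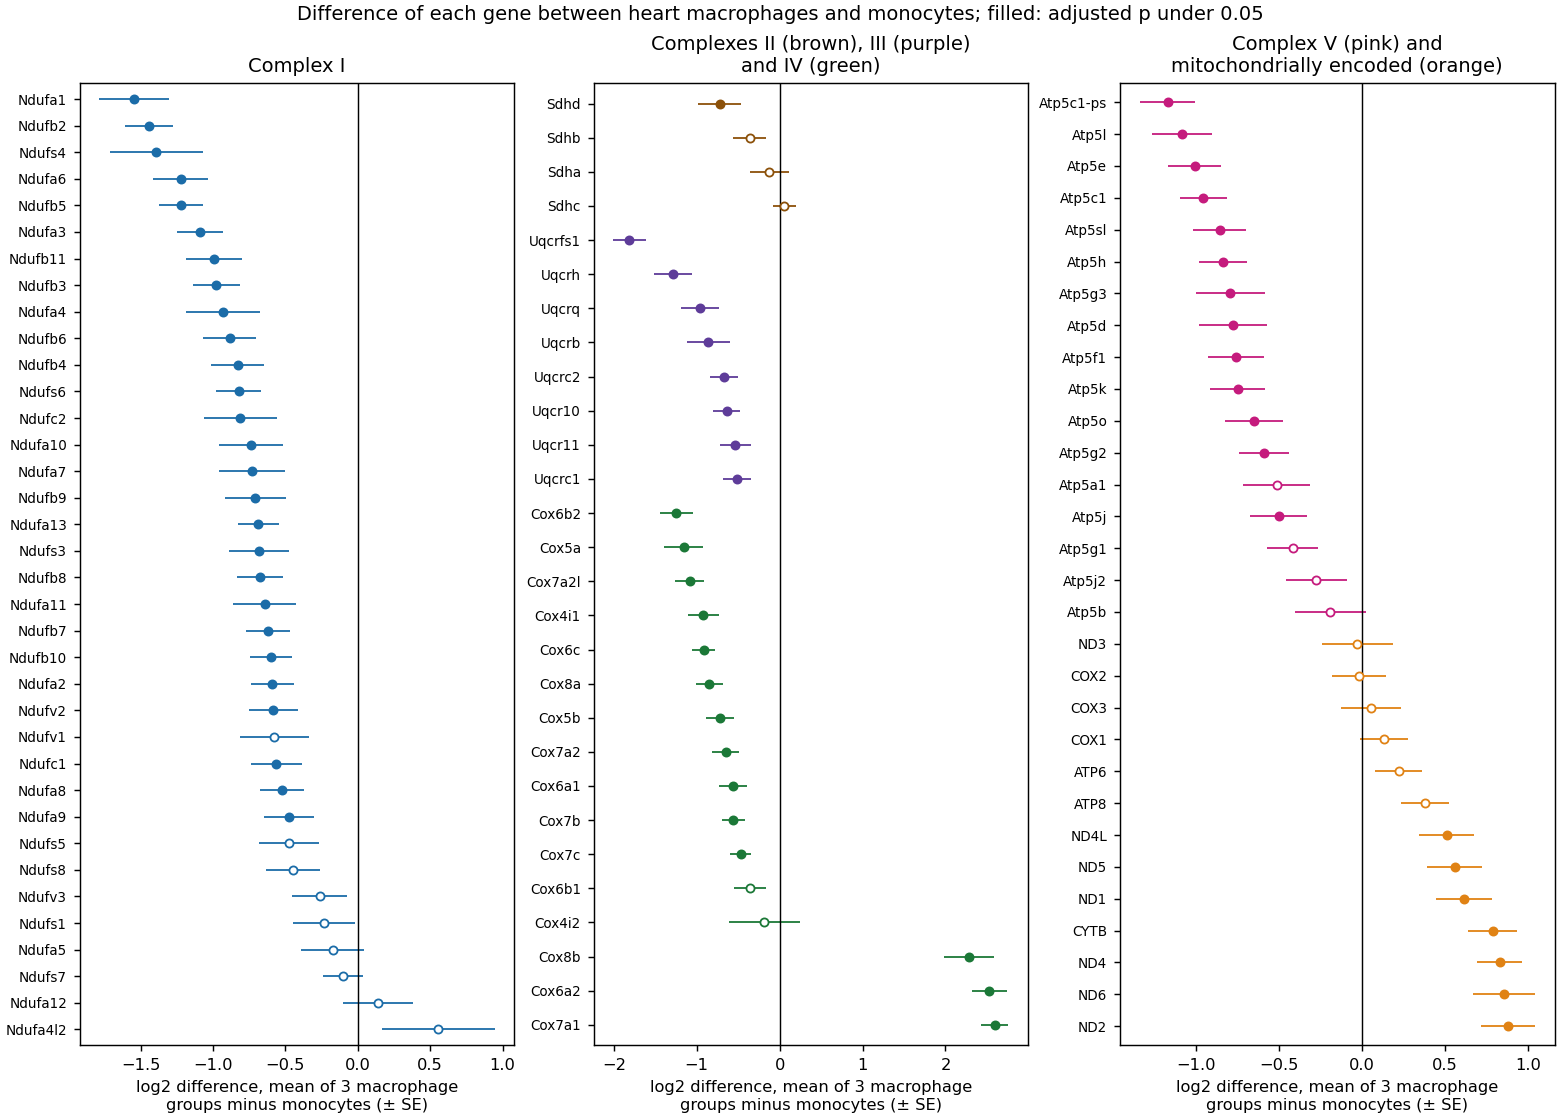
Difference of the mean of the macrophage groups minus monocytes (log2) for the subunit genes (1 is not shown), ordered by size within each complex, with bars for the standard error of the limma fit and filled points for an adjusted p under 0.05. The 13 mitochondrially encoded subunits follow under their array symbols (ND4 for mt-Nd4). Genes of complexes I, III, IV and V sit mostly left of 0, Uqcrfs1 farthest at -1.81, and the muscle isoforms Cox8b, Cox6a2 and Cox7a1 sit on the right at 2.28 to 2.59.

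Complex I, the NADH dehydrogenase, has a catalytic core and a larger set of accessory subunits around it. Of its 37 genes, 28 were lower in macrophages and 0 higher, where 15.2% of all genes were lower, with a median difference of -0.68. The count of 28 was 21 under median scaling, 17 under quantile normalization and 19 after normexp, where 3366, 2980 and 4784 of 22011 genes were lower. Ndufa1, an accessory subunit encoded on the X chromosome, had levels of 1.96, 0.82, 1.08 and 1.05 in the CCR2+ macrophages, 2.16, 1.34, 1.49 and 1.35 in the MHCII-high macrophages, 2.41, 1.4957, 1.96 and 1.61 in the MHCII-low macrophages, and 3.47, 2.79, 3.35 and 2.80 in the monocytes. Its macrophage arrays all lay below its monocyte arrays, and the difference was -1.54 ± 0.24 (SE), a 2.92-fold lower level (adjusted p = 0.000147, limma). Ndufb2, an accessory subunit of the membrane arm, had levels of 1.75, 1.64, 1.75 and 1.54 in the CCR2+ macrophages, 2.05, 1.49, 1.60 and 1.49 in the MHCII-high macrophages, 2.38, 1.73, 2.18 and 1.85 in the MHCII-low macrophages, and 3.42, 2.93, 3.56 and 3.02 in the monocytes. Again no macrophage array reached a monocyte array, with a difference of -1.44 ± 0.17 or 2.72-fold (adjusted p = 8.76e-06, limma).

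Ndufs4, an accessory subunit of the matrix arm whose loss causes complex I deficiency, had levels of -0.12, -0.87, -0.52 and -0.70 in the CCR2+ macrophages, 0.20, -0.82, -1.20 and -1.10 in the MHCII-high macrophages, 0.09, -1.07, -0.38 and -1.04 in the MHCII-low macrophages, and 1.85, 0.15, 0.67 and 0.38 in the monocytes. Here the MHCII-high array of the first slide, at 0.20, was above the lowest monocyte array, at 0.15, so the groups overlapped by a narrow margin. The difference was -1.39 ± 0.32 (adjusted p = 0.00386, limma). Ndufa6 (-1.22 ± 0.19), Ndufb5 (-1.22 ± 0.15) and Ndufa3 (-1.09 ± 0.16), all accessory subunits, were lower without overlap. The adjusted p of Ndufa3 was 8.54e-05 by its brightest probe and 0.0828 by the mean of its probes, which ended the call.

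In the core of complex I, genes on both sides of the threshold were found. Ndufs3, which helps form the matrix arm, and Ndufv2, which carries an iron-sulfur cluster, were lower by 0.68 and 0.59 on the log2 scale (adjusted p = 0.022 and 0.0161, limma). Ndufv1, which binds NADH, had a difference of -0.58 ± 0.24 that was not past the threshold (adjusted p = 0.0875) and was so with the slide as a block (0.0107). Ndufs8, which carries iron-sulfur clusters, likewise had -0.45, with adjusted p = 0.0879 and 0.0337. Ndufs1, the largest subunit of the complex, had levels of -0.17, -0.58, -0.26 and -0.36 in the CCR2+ macrophages, 0.27, -0.26, -0.98 and -0.55 in the MHCII-high macrophages, 0.15, -0.78, -0.24 and -0.04 in the MHCII-low macrophages, and -0.14, -0.39, 0.15 and 0.06 in the monocytes. All 4 groups overlapped, at a difference of -0.24 (adjusted p = 0.484, limma). The calls of Ndufs3 and Ndufv2 each ended without monocyte replicate 3, at adjusted p-values of up to 0.0901 over the 24 alternatives run.

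Complex II, succinate dehydrogenase, is also an enzyme of the tricarboxylic acid cycle and is wholly encoded in the nucleus. Of its 4 genes, 1 was lower, where 15.2% of all genes were. With the slide as a block 2 were lower, where 38.4% of all genes were called (21.99% lower). Sdhd, a membrane anchor, had levels of -1.11, -1.62, -1.71 and -1.86 in the CCR2+ macrophages, -0.12, -1.45, -1.56 and -1.55 in the MHCII-high macrophages, -0.67, -1.30, -1.16 and -1.58 in the MHCII-low macrophages, and -0.29, -0.39, -0.66 and -1.0004 in the monocytes. On the first slide the MHCII-high array stood above all monocyte arrays and the MHCII-low array among them, and the other macrophage arrays were lower than every monocyte array. The difference was -0.72 ± 0.26 (adjusted p = 0.0488, limma), and 13 of 24 alternatives ended this call, including leaving out any of CCR2+ replicates 2, 3 and 4, the same replicates of either other macrophage group, or monocyte replicates 1, 2 and 3, with adjusted p-values of up to 0.153. Sdhb, the iron-sulfur subunit, had -0.36 ± 0.20 (adjusted p = 0.202, and 0.0116 with the slide as a block). Sdha, the flavoprotein that oxidizes succinate, had -0.13, and Sdhc, the other anchor, had 0.06 (adjusted p = 0.767 and 0.83).

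Complex III, the cytochrome bc1 complex, passes electrons from ubiquinol to cytochrome c. All 8 of its genes were lower in macrophages, where 15.2% of all genes were, with a median difference of -0.77. This count was 6 under median scaling, 4 under quantile normalization and 5 after normexp, where 3366, 2980 and 4784 of 22011 genes were lower. The call of Uqcr11, at -0.54 (adjusted p = 0.0442, limma), ended in 13 of 24 alternatives, and that of Uqcrb, at -0.86 (0.0198), in 3. Uqcrfs1, the Rieske iron-sulfur protein of the catalytic core, had levels of 0.22, -0.05, -0.05 and 0.19 in the CCR2+ macrophages, 0.30, -0.41, 0.05 and -0.73 in the MHCII-high macrophages, -0.02, -0.59, 0.05 and -0.30 in the MHCII-low macrophages, and 1.78, 1.70, 2.02 and 1.29 in the monocytes. The highest macrophage array, at 0.30, lay well under the lowest monocyte array, at 1.29. This was the most negative difference of the 82 genes, at -1.81 ± 0.19 or 3.51-fold (adjusted p = 3.88e-06, limma), and it was -1.62, -1.90 and -1.91 in the CCR2+, MHCII-high and MHCII-low macrophages. Uqcrh, the hinge protein that helps cytochrome c bind, had levels of 4.12, 3.45, 3.65 and 3.43 in the CCR2+ macrophages, 4.25, 3.66, 4.37 and 3.48 in the MHCII-high macrophages, 4.15, 3.58, 4.11 and 3.48 in the MHCII-low macrophages, and 5.38, 5.19, 5.38 and 4.43 in the monocytes. No macrophage array reached a monocyte array, and the difference was -1.28 ± 0.23 (adjusted p = 0.000465, limma). The core proteins Uqcrc1 and Uqcrc2 were lower by 0.52 and 0.67 on the log2 scale (adjusted p = 0.0339 and 0.00751), and the call of Uqcrc1 ended in 9 of 24 alternatives, among them without CCR2+ replicate 2 or 4, MHCII-high replicate 2, MHCII-low replicate 2, or monocyte replicate 1 or 3.

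Complex IV, cytochrome c oxidase, reduces oxygen. Without the 3 muscle isoforms, 11 of its 13 genes were lower, where 15.2% of all genes were, with a median difference of -0.72. Under quantile normalization 8 were lower, where 2980 of 22011 genes were. Cox5a, a regulatory subunit on the matrix side, had levels of 1.95, 1.40, 1.2534 and 1.21 in the CCR2+ macrophages, 1.98, 1.16, 0.94 and 0.81 in the MHCII-high macrophages, 2.11, 1.22, 1.86 and 1.32 in the MHCII-low macrophages, and 2.52, 2.69, 3.02 and 2.14 in the monocytes. The macrophage arrays, at up to 2.11, ended just below the monocyte arrays, which began at 2.14, and the difference was -1.16 ± 0.24 (adjusted p = 0.00175, limma). Cox4i1, the common form of the largest nuclear subunit, was lower by 0.92 on the log2 scale (adjusted p = 0.00161). Its alternative form Cox4i2, known from lung and from low oxygen, had -0.19 ± 0.43 (adjusted p = 0.815). Cox6b2, a form described in testis, was lower at -1.25 ± 0.20 (adjusted p = 0.000214), and its common partner Cox6b1 had -0.36 (adjusted p = 0.205). Cox7a2l, which takes part in joining complexes III and IV into supercomplexes, was lower at -1.09 ± 0.18 (adjusted p = 0.000243). Cox7b, a small structural subunit, was lower at -0.56 (adjusted p = 0.00656), a call that ended under quantile normalization (0.162).

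Ndufa4 carries a complex I name and was counted there, although its protein is now placed in complex IV. It was lower at -0.93 ± 0.26 (adjusted p = 0.0125, limma), and the call ended without monocyte replicate 1 or 3, at an adjusted p of up to 0.0601. Ndufa4l2, a related gene known to respond to low oxygen, had levels of -2.55, -2.04, -3.15 and -2.09 in the CCR2+ macrophages, -1.73, -2.52, -4.19 and -2.37 in the MHCII-high macrophages, -2.42, -2.40, -3.05 and -2.73 in the MHCII-low macrophages, and -3.98, -3.32, -2.03 and -3.30 in the monocytes. It was above background on 1 monocyte array and on 3 MHCII-high arrays, and its spread within groups was wide. The difference of 0.55 ± 0.39 did not pass the threshold (adjusted p = 0.345).

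Complex V, ATP synthase, has a rotary catalytic head and a membrane part with the ring of c subunits. Of its 17 genes, 13 were lower, where 15.2% of all genes were, with a median difference of -0.76. The count was 12 under median scaling, 11 under quantile normalization and 12 after normexp, where 3366, 2980 and 4784 of 22011 genes were lower. Atp5c1, the gamma subunit that forms the rotating shaft, had levels of 1.45, 1.51, 1.05 and 1.14 in the CCR2+ macrophages, 1.48, 1.00, 1.21 and 1.14 in the MHCII-high macrophages, 1.59, 1.29, 1.43 and 1.38 in the MHCII-low macrophages, and 2.46, 2.13, 2.37 and 2.09 in the monocytes. All macrophage arrays lay below all monocyte arrays, at a difference of -0.96 ± 0.14 (adjusted p = 9.14e-05, limma). The probe of Atp5c1-ps, a processed copy whose transcript may share sequence with Atp5c1, gave -1.17 and is uncertain for that reason. Atp5l, the g subunit of the membrane part, was lower at -1.09 ± 0.18 (adjusted p = 0.000281) and also did not overlap.

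The pair of genes for the alternating subunits of the catalytic head did not pass the threshold. Atp5b, the catalytic beta subunit, had levels of 3.34, 2.49, 2.82 and 2.44 in the CCR2+ macrophages, 3.18, 2.55, 2.77 and 2.34 in the MHCII-high macrophages, 3.34, 2.53, 2.86 and 2.54 in the MHCII-low macrophages, and 3.15, 2.95, 3.16 and 2.57 in the monocytes. Its groups overlapped, and the difference was -0.19 (adjusted p = 0.584, limma). Atp5a1, the alpha subunit, had -0.51 ± 0.20 (adjusted p = 0.074, and 0.00238 with the slide as a block). The ring subunit c is encoded by Atp5g1, Atp5g2 and Atp5g3, which give the same mature protein. They had differences of -0.42, -0.59 and -0.79, and Atp5g2 and Atp5g3 passed the threshold (adjusted p = 0.00679 and 0.00851), whereas Atp5g1 did so only with the block (0.058 and 0.00639). A dimmer probe of Atp5g1, also above background on all 16 arrays, had a difference of -0.10, so the size for Atp5g1 is uncertain. The call of Atp5g2 ended under quantile normalization and normexp background correction, at adjusted p-values of up to 0.374.

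**Figure D4:**
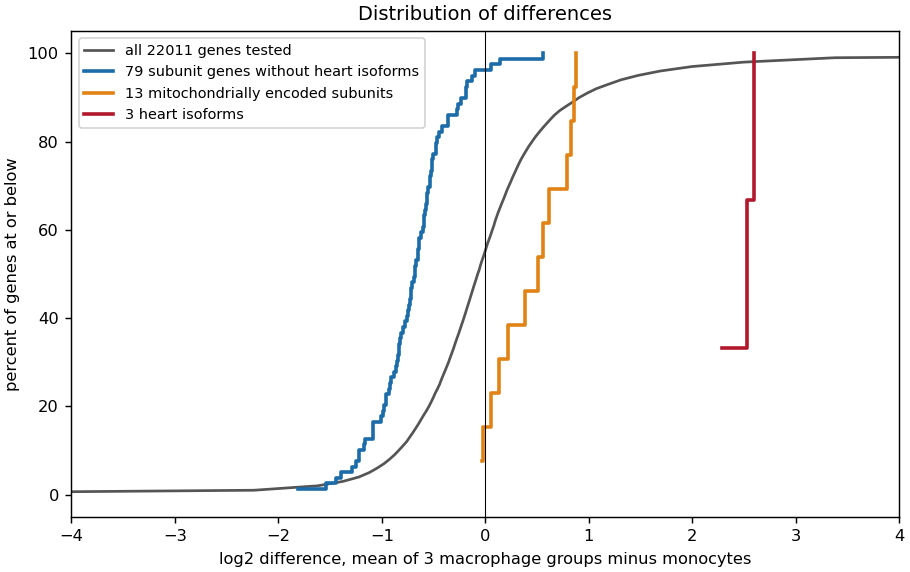
Differences of the mean of the macrophage groups minus monocytes (log2) as cumulative shares of genes, for 79 subunit genes, the 3 heart isoforms, the 13 mitochondrially encoded subunits and all 22011 genes. The curve of the subunit genes, with its median at -0.68, lies left of that of all genes, with its median at -0.07, and the mitochondrially encoded subunits, with their median at 0.51, lie right of it over most of their range.

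The 3 genes that were higher in macrophages than in monocytes were Cox6a2, Cox7a1 and Cox8b. Each encodes the isoform of a complex IV subunit that heart and skeletal muscle use, and each has a broadly expressed partner, Cox6a1, Cox7a2 and Cox8a. Cox7a1 had levels of 0.84, 1.00, 0.83 and 1.24 in the CCR2+ macrophages, 1.32, 0.87, 1.07 and 1.00 in the MHCII-high macrophages, 0.98, 0.95, 1.27 and 1.14 in the MHCII-low macrophages, and -1.13, -1.66, -2.05 and -1.37 in the monocytes. The macrophage arrays were close together and far above the monocyte arrays, and the difference was 2.59 ± 0.16 or 6.04-fold (adjusted p = 1.04e-08, limma). Cox6a2 had levels of 0.12, -0.41, 0.04 and 1.09 in the CCR2+ macrophages, 0.86, 0.68, 0.88 and 0.99 in the MHCII-high macrophages, 0.74, 0.61, 0.92 and 0.94 in the MHCII-low macrophages, and -1.76, -1.61, -2.28 and -1.96 in the monocytes. The CCR2+ arrays were the most spread, with replicate 4 at 1.09 above the other CCR2+ arrays, and none reached down to the monocytes. The difference was 2.53 ± 0.21 or 5.76-fold (adjusted p = 2.60e-07, limma). Cox8b had levels of 0.08, -0.22, -0.41 and 0.28 in the CCR2+ macrophages, 0.57, 0.59, 1.15 and 0.88 in the MHCII-high macrophages, 0.74, -0.23, 0.06 and 1.00 in the MHCII-low macrophages, and -2.10, -2.49, -2.37 and -0.68 in the monocytes. Monocyte replicate 4, at -0.68, came nearest to the macrophages, whose lowest array was at -0.41, and the difference was 2.28 ± 0.30 or 4.87-fold (adjusted p = 3.16e-05, limma). All 3 probes were above background on every monocyte array, and the 3 calls held in each of the 24 alternatives run.

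The broadly expressed partners went the other way on the same arrays. Cox8a had levels of 4.89, 4.47, 4.70 and 4.56 in the CCR2+ macrophages, 5.01, 4.47, 4.63 and 4.55 in the MHCII-high macrophages, 5.04, 4.56, 5.15 and 4.88 in the MHCII-low macrophages, and 5.82, 5.32, 5.82 and 5.40 in the monocytes. Its macrophage arrays all lay below its monocyte arrays, at a difference of -0.85 ± 0.16 (adjusted p = 0.000839, limma). Cox7a2 was lower at -0.65 ± 0.16 (adjusted p = 0.00729) and Cox6a1 at -0.56 ± 0.16 (adjusted p = 0.0169), and the call of Cox6a1 ended under median scaling, under quantile normalization and without monocyte replicate 1 or 3, at up to 0.485. In CCR2+, MHCII-high and MHCII-low macrophages, Cox6a2 differed from monocytes by 2.12, 2.76 and 2.71 and Cox6a1 by -0.62, -0.72 and -0.34. All 3 partners passed the threshold in CCR2+ and in MHCII-high macrophages, but only 1 of 3 did in MHCII-low macrophages. There Cox7a2 had -0.47 (adjusted p = 0.121, limma).

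**Figure D5:**
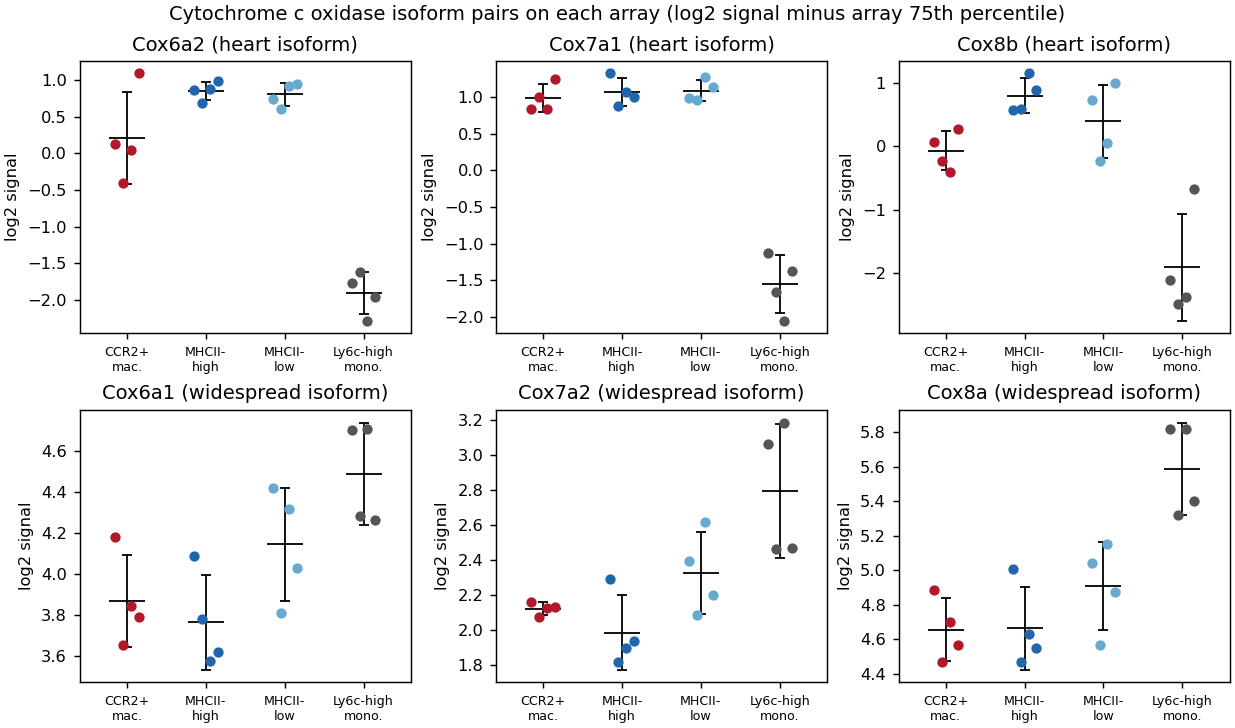
Log2 signal relative to the 75th percentile of each array for the muscle isoforms Cox6a2, Cox7a1 and Cox8b beside their broadly expressed partners Cox6a1, Cox7a2 and Cox8a, with 1 point per array, a bar at each group mean and whiskers of 1 SD. Each muscle isoform is higher on all 12 macrophage arrays than on the 4 monocyte arrays, and Cox8a is lower on all 12. The heights of different genes cannot be compared.

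The isoforms are read by separate 60-base probes, of which the leading 30 bases are printed here because the opposite differences rest on telling the pairs apart. Capitals are not used, since no part was singled out.
Cox6a2 probe: agcaatcttcaaattggccttctgcacacc
Cox6a1 probe: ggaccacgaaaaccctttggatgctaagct
Cox7a1 probe: acaacgtcctgtacagactgaccatgacgc
Cox7a2 probe: ctttggggatcaatatttattgatgtgtat
Cox8b probe: ctataaaaagagctccgcagcatgaagttg
Cox8a probe: tattggctctgcttggtggggtcccccttt
Over the full probes, the longest run of bases shared within a pair was 4 bases for Cox6a2 and Cox6a1, 6 for Cox7a1 and Cox7a2, and 6 for Cox8b and Cox8a. Each probe was set against the other probe and not against the partner's transcript, so binding to that transcript was not tested.

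Markers of cardiomyocytes, the muscle cells that surround these macrophages, differed in the same direction as the muscle isoforms. Of 17 measured cardiomyocyte genes, 13 were higher and 0 lower in macrophages, with a median difference of 2.31 (8 higher, median 0.59, after normexp background correction). Of these genes 6 were above background on 0 monocyte arrays and were kept only through the macrophages, and with these set at their lower bounds the median was 0.87. Of the 9 genes above background on all 16 arrays, 6 were higher, with a median of 0.72. The signals of all 17 genes, with the 6 seen on no monocyte array among them, were summed as multiples of the 75th percentile. The sums came to 27.0 to 41.9 on the CCR2+ arrays, 35.7 to 46.4 on the MHCII-high arrays, 32.7 to 46.4 on the MHCII-low arrays and 8.43 to 11.6 on the monocyte arrays. Mb, the oxygen store myoglobin, had levels of 1.63, 1.06, 1.44 and 2.24 in the CCR2+ macrophages, 2.32, 1.72, 2.36 and 2.17 in the MHCII-high macrophages, 1.92, 1.41, 1.69 and 2.38 in the MHCII-low macrophages, and -5.12, -5.36, -5.22 and -5.44 in the monocytes. It was above background on all 12 macrophage arrays and on 0 monocyte arrays, so its level in macrophages was at least 30.8-fold higher. That bound sets the mean of the macrophage arrays against the dimmest signal still above background on each monocyte array. The same held for Tnnt2, a troponin, at least 17.9-fold higher, and for Actc1, cardiac actin, at least 12.7-fold higher. The calcium channel gene Ryr2, the other gene listed, was above background on 0 of 16 arrays. The part of cardiomyocyte RNA in the levels of Cox6a2, Cox7a1 and Cox8b was not tested.

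Some markers of other heart cells were also higher in the sorted macrophages. In the mean of the macrophage groups, 5 of 9 endothelial markers, 4 of 8 pericyte and smooth muscle markers and 4 of 6 fibroblast markers were higher and 0 were lower, and 0 of 7 adipocyte markers passed the threshold (limma; brown fat is another tissue that uses these isoforms). Of all genes, 12.4% were higher. The called markers Rgs5, of pericytes, and Col1a1 and Dcn, of fibroblasts, were above background on 0 monocyte arrays and were kept only through the macrophages. Among genes above background on all 16 arrays, 5 of 7 endothelial, 0 of 3 pericyte and smooth muscle and 3 of 3 fibroblast markers were higher. Erythroid and platelet markers were lower for 5 of 8 and higher for 1, neutrophil markers lower for 2 of 7 and higher for 1, lymphocyte markers higher for 1 of 8, and dendritic cell markers higher for 1 of 6 and lower for 1. The higher neutrophil marker, Mmp9, was above background on 8 macrophage arrays and 0 monocyte arrays. Among genes lower in macrophages, Hbb-b1, a haemoglobin chain, was above background on 4 monocyte arrays and 0 macrophage arrays. The part of these cells in the subunit results was not tested.

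Promoter sequences were taken from RefSeq (GRCm38.p6) as 250 bases before the transcription start. They were found for 67 of the 82 genes, and for Cox6a2 none was in the table. Without Cox7a1 and Cox8b, the 65 remaining genes were searched on both strands for short motifs of factors known to act on genes of the respiratory chain, none of which contains another apart from the longer and shorter forms of NRF1. The NRF1 motif was searched first as its palindrome, which stood in 4 of 65 (6.15%) against 0.877% of 27025 genes. The shorter form GCGCATGCG, the palindrome without its closing C, was chosen after that count had been seen and stood in 6 of 65 (9.23%) against 1.64%. The ETS motif CCGGAAG stood in 12 (18.5%) against 7.83%. The YY1 motif AANATGGCG stood in 4 (6.15%) against 1.29%, and the ERR motif TCAAGGTCA in 1 (1.54%) against 0.422%. The CRE motif TGACGTCA, which was added after the sequences had been read, stood in 4 (6.15%) against 1.77%. Dinucleotide CpG occurred a median of 14 times in the subunit windows and 6 times in those of all genes. A match describes letters in this window and not a site of binding.

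The last 150 bases before the start are shown for the muscle isoforms that have a window and for the partners of all 3, since these pairs differed in opposite directions, and for Uqcrfs1, Ndufa1 and Ndufb2, the 3 genes with the most negative differences. Capitals mark a match to a motif on either strand.
Cox7a1, chr7:30184021-30184170, plus strand: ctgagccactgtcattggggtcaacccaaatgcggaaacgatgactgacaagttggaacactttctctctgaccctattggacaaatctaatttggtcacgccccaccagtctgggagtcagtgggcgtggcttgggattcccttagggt
Cox7a2, chr9:79759854-79760003, minus strand: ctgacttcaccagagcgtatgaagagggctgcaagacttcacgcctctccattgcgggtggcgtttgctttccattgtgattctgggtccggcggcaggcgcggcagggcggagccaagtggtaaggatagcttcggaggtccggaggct
Cox8b, chr7:140900447-140900596, minus strand: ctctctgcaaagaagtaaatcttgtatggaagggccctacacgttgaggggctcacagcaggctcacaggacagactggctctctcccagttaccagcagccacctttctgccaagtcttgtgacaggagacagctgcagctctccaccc
Cox8a, chr19:7217617-7217766, minus strand: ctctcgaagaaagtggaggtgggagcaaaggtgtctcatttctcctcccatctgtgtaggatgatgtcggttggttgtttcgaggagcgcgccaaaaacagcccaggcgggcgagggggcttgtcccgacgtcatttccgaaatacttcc
Cox6a1, chr5:115348959-115349108, minus strand: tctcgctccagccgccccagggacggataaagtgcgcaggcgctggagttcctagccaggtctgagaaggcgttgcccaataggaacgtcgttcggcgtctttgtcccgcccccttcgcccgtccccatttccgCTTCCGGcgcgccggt
Uqcrfs1, chr13:30545317-30545466, minus strand: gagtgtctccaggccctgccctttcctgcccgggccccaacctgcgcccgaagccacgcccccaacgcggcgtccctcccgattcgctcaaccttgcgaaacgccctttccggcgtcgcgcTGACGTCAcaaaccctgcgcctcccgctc
Ndufa1, chrX:37191239-37191388, minus strand: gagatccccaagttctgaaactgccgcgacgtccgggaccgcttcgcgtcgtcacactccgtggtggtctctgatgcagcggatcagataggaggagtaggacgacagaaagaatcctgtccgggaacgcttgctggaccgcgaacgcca
Ndufb2, chr6:39592415-39592564, plus strand: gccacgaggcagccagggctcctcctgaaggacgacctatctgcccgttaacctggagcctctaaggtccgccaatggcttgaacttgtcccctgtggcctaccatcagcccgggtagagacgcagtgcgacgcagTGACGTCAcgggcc
In the full windows Cox7a1 had 4 CpG and Cox8b 1, against 14 in Cox7a2, 11 in Cox8a and 26 in Cox6a1. The capitals in Cox6a1 are the ETS motif, 16 to 10 bases before the start, and overlapping NRF1 matches on both strands lay farther out, at 162 to 153 bases. Uqcrfs1 and Ndufb2 each held the CRE letters, at 29 to 22 and 14 to 7 bases before the start, and none of the 5 motifs was in the windows of Ndufa1, Cox7a1, Cox7a2, Cox8b and Cox8a.

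The subunits encoded by mitochondrial DNA, 13 in all, were higher in the mean of the macrophage groups than in monocytes or did not pass the threshold. Their median level was 5.25, 5.03, 5.20 and 5.30 on the CCR2+ arrays, 5.29, 5.28, 5.58 and 5.21 on the MHCII-high arrays, 5.34, 5.30, 5.52 and 5.37 on the MHCII-low arrays, and 5.10, 4.51, 4.77 and 4.68 on the monocyte arrays. Monocyte replicate 1 was above CCR2+ replicate 2, and the other monocyte arrays were below all macrophage arrays. In the mean of the macrophage groups 7 of the 13 were higher and 0 lower, with a median difference of 0.51, where 12.4% of all genes were called higher. The higher ones were 6 of 7 complex I subunits and the only one of complex III, while 0 of 3 in complex IV and 0 of 2 in complex V passed the threshold. Of these, mt-Atp8, at 0.38, had an adjusted p of 0.0605, and of 0.0175 with the slide as a block, which made the call. Against monocytes singly, 5, 6 and 5 of the 13 were higher and 0 lower in CCR2+, MHCII-high and MHCII-low macrophages. There 9.877%, 10.07% and 10.03% of all genes were higher, and the medians of the 13 were 0.35, 0.58 and 0.46. With the block 5, 8 and 7 were higher, where 3084, 2990 and 3051 of 22011 genes were. In that fit 1 was lower in CCR2+ macrophages, where 4358 genes were, and 0 in the others.

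Among them mt-Nd4, a proton-pumping subunit of complex I, had levels of 5.01, 5.17, 5.25 and 5.30 in the CCR2+ macrophages, 5.11, 5.28, 5.54 and 5.36 in the MHCII-high macrophages, 5.16, 5.43, 5.45 and 5.62 in the MHCII-low macrophages, and 4.66, 4.22, 4.48 and 4.55 in the monocytes. All macrophage arrays lay above all monocyte arrays, at a difference of 0.83 ± 0.14 (adjusted p = 0.000246, limma). Cytochrome b, mt-Cytb, the catalytic partner of Uqcrfs1 in complex III, had levels of 4.85, 4.59, 4.84 and 5.03 in the CCR2+ macrophages, 4.75, 4.67, 5.19 and 4.69 in the MHCII-high macrophages, 4.86, 4.84, 4.98 and 4.70 in the MHCII-low macrophages, and 4.32, 3.76, 4.12 and 3.98 in the monocytes. It too did not overlap, at 0.79 ± 0.15 (adjusted p = 0.000718), opposite in sign to Uqcrfs1. The catalytic subunit of complex IV, mt-Co1, had levels of 4.69, 4.88, 4.90 and 4.92 in the CCR2+ macrophages, 4.86, 4.99, 5.42 and 4.95 in the MHCII-high macrophages, 4.89, 5.30, 5.52 and 5.24 in the MHCII-low macrophages, and 5.10, 4.88, 4.89 and 4.79 in the monocytes. Its groups overlapped, at a difference of 0.13 (adjusted p = 0.577). mt-Nd2 was higher by 0.88 and mt-Nd6 by 0.85 (adjusted p = 0.000664 and 0.00247). The calls of mt-Nd2, mt-Nd4, mt-Nd6 and mt-Cytb held in all alternatives, and those of mt-Nd1, mt-Nd4l and mt-Nd5 ended under median scaling and without monocyte replicate 2, the last pair also without monocyte replicate 3 or 4. The 5 subunits of complexes IV and V passed the threshold under quantile normalization except mt-Co2, and mt-Atp8 also did so after normexp, with the stricter filter on dim probes and without monocyte replicate 1. The count of 7 was 4 under median scaling, 11 under quantile normalization, and 4 to 8 with a replicate left out.

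Between the macrophage populations, 0 of the 82 genes passed the threshold in any of the 3 comparisons (limma). For CCR2+ minus MHCII-high macrophages the median was -0.03, with 1.26% of all genes called. At an unadjusted p under 0.05, 2 subunit genes were lower and 1 higher, where 9.98% of all genes were at that level. The pair on the lower side was Cox8b at -0.87 ± 0.37 and Cox6a2 at -0.64 ± 0.26, the muscle isoforms, and Atp5f1, a subunit of the stalk of complex V, was at 0.60 ± 0.20 (adjusted p = 0.421, 0.382 and 0.253). Without CCR2+ replicate 4, which had the highest Cox6a2 level of the CCR2+ arrays (1.09), Cox6a2 passed the threshold against both other macrophage groups. The differences were -0.93 against MHCII-high (adjusted p = 0.0487) and -0.88 against MHCII-low macrophages (adjusted p = 0.0397, limma). In these fits 222 and 494 of all 22011 genes were called. Leaving out the highest array lowers the CCR2+ mean by itself, so nothing is read from these calls.

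For CCR2+ minus MHCII-low macrophages the median was -0.25, with 2.81% of all genes called. At an unadjusted p under 0.05, 9 subunit genes were lower and 0 higher, where 11.7% of all genes were at that level. The medians on the 4 slides were -0.24, -0.09, -0.43 and -0.19, and 15 of the 82 genes had a positive difference. With the slide as a block, where 5.78% of all genes were called, 4 genes were lower: Ndufa1 (-0.64, adjusted p = 0.0127), Atp5k, the e subunit of ATP synthase (-0.57, 0.0155), Cox6c, a small complex IV subunit (-0.53, 0.0284), and Sdhc (-0.48, 0.0428). Sdhc had levels of 0.70, 0.57, 0.53 and 0.63 in the CCR2+ macrophages, 0.87, 0.48, 0.64 and 0.40 in the MHCII-high macrophages, 1.26, 0.78, 1.30 and 1.00 in the MHCII-low macrophages, and 0.76, 0.47, 0.87 and 0.73 in the monocytes. The MHCII-low arrays, from 0.78 upwards, stood above all CCR2+ arrays, which ended at 0.70, while the monocyte arrays lay across both. For MHCII-high minus MHCII-low macrophages the median was -0.17, with 0.0727% of all genes called. There 2 subunit genes, Sdhc at -0.48 and Ndufa2 at -0.48, were lower at an unadjusted p under 0.05, where 3.97% of all genes were at that level. These comparisons share arrays, so their values do not add support to each other.

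Assembly factors build the complexes without being part of them. Of 13 assembly factors of complex I, 1 was higher and 1 lower, with a median difference of -0.22 in the mean of the macrophage groups, where 12.4% of all genes were higher and 15.2% lower. Ndufaf7, a methyltransferase, was lower at -1.29 ± 0.20 (adjusted p = 0.000114, limma). The gene called higher, Ndufaf2, was above background on 9 macrophage arrays and 0 monocyte arrays and was kept only through the macrophages. Its macrophage mean of -3.23 lay below the dimmest signal still above background on the monocyte arrays, which averaged -3.08. Nothing is read from its call, and no fold is given. With the slide as a block 5 were lower, where 21.99% of all genes were. Of 28 assembly factors of complexes II to V, 1 was higher and 5 lower, with a median of -0.33, so the share called was not above the 27.6% of all genes. Sdhaf1, which serves the iron-sulfur clusters of complex II, and Cox14, which assists the early steps of complex IV, were both lower at -0.82 (adjusted p = 0.0109 and 0.00072), and Coa5, another complex IV factor, at -0.67 (adjusted p = 0.0449). Sco2, which brings copper to complex IV, was higher at 0.49 (adjusted p = 0.0319). With the block the counts were 3 higher and 8 lower, where 38.4% of all genes were called.

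The mobile carriers and related enzymes outside the symbol rule were 16 genes, of which 2 were higher and 3 lower, with a median of -0.14, a share near the 27.6% of all genes called. Cycs, cytochrome c, which carries electrons from complex III to complex IV, had levels of 2.31, 1.72, 2.18 and 1.51 in the CCR2+ macrophages, 2.23, 1.34, 1.82 and 1.36 in the MHCII-high macrophages, 2.15, 1.65, 1.70 and 1.53 in the MHCII-low macrophages, and 3.33, 2.77, 3.08 and 2.56 in the monocytes. No macrophage array reached a monocyte array, and the difference was -1.14 ± 0.21 (adjusted p = 0.000692, limma). Coq2, an enzyme of ubiquinone synthesis, was lower at -1.20 ± 0.21 (adjusted p = 0.000478), and Coq5, a later enzyme of that pathway, was higher at 2.61 ± 0.34 (adjusted p = 2.76e-05), with 2 of 4 monocyte arrays above background, so its size is uncertain. Etfdh, which passes electrons from fatty acid oxidation to ubiquinone, was called higher but was above background on 8 macrophage arrays and 0 monocyte arrays. It was kept only through the macrophages, so nothing is read from its call and no fold is given. The subunits Ndufab1 of complex I and Cyc1 of complex III, which the symbol rule leaves out, had -0.13 and -0.48 and did not pass the threshold.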

How the data were processed

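RNA of 16 sorted samples, 4 per group, was hybridised to Agilent 1-colour arrays with Cy5. The authors made the scanner output with Agilent Feature Extraction 11.5.1.1, per the submitters' processing notes, which also name Partek without a version. Per the file headers the deposited processed signal is an intensity, corrected for background within each array. The authors' deposited value table holds log2 values. None of its columns matched the array of the same label, so it served only as a check.

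Control spots and marked spots were left out, and spots of a probe were averaged. The log2 of the processed signal minus the 75th percentile of each array was tested. Probes well above background on 4 or more of the 16 arrays were kept, which left 27643 probes and 22011 genes, each read by its brightest probe. Of the kept probes, 19698 are named by accession. Levels in all groups were fitted in limma 3.58.1 (R 4.3.3), with 12 residual degrees of freedom, Benjamini-Hochberg adjustment over all genes and a threshold of 0.05. The script was tested on simulated data. The number of arrays limits the precision.

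Replicate numbers were those of the 4 slides, each with 1 array per group. All 24 pairs of arrays with the same number had deviations from their group means that correlated above 0.1 (0.139 to 0.638), against -0.535 to 0.492 for other pairs. By mean correlation, 14 of 16 arrays were closest to the arrays of their own number. The ranges overlap, so these values do not settle whether the numbers pair the arrays. The slide was fitted as a block in an alternative. A group had the same place on every slide, so place and group cannot be told apart.

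Genes named with values were, in each comparison, up to 8 called genes per direction by size, the highest and lowest of each complex, and fixed sets of isoforms and core subunits, and up to 4 per other list. Exceptions are named for a role in the text. The symbol rule and all gene lists were chosen with earlier results of these data known. Alternatives were median scaling, quantile normalization, normexp background correction with an offset of 50, no filter or a stricter filter on dim probes, the mean of a gene's probes, the slide as a block, array weights, only the groups compared, and leaving out each replicate. Protein sequences were not used here. The values of 1 gene are counted in the totals and not reported here.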

Additional observations from a re-analysis of the deposited data

Results flagged for a closer look

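In each group of 4 arrays, the gap between an extreme array and its nearest neighbour was set against the range of the group, for 39 named genes and 6 medians. Of 180 groups tested, 2 had a ratio above Dixon's 95% critical value, where chance alone gives about 1 in 20. Both were MHCII-high macrophages, replicate 1. For Sdhd, the membrane anchor of complex II, the ratio was 0.924, with a level of -0.122 on that array and -1.556 to -1.447 on the others. For Ndufb5, an accessory subunit of complex I, it was 0.848, with a level of 0.745 against 0.322 to 0.386. Without that array, Sdhd remained lower in the mean of the macrophage groups than in monocytes, as did Ndufb5.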

How the results depend on the processing

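Of the 64 genes called between the averaged macrophage groups and monocytes, 34 were called in each of 24 alternatives and 30 lost the call in at least 1. Quantile normalization ended 20 of these calls, median scaling 12, normexp 13, and leaving out monocyte replicate 1 or 3 ended 17 or 19. The filters on dim probes, array weights and the replicate block ended 0. Genes called, in both directions, for CCR2+ macrophages against monocytes were 35 under median scaling and 35 under quantile normalization. Of all 22011 genes, 4039 and 4610 were then called. With only the groups compared in the fit, 33 were called for MHCII-high and 19 for MHCII-low macrophages against monocytes. Of all 22011 genes, 3717 and 3758 were called in these fits. With the replicate block, 59 were called for MHCII-low macrophages against monocytes and 4 for CCR2+ against MHCII-low macrophages. Of all 22011 genes, 7093 and 1273 were called with the block. Array weights gave 1 for CCR2+ against MHCII-low macrophages, Cox6c, where 1204 of 22011 genes were called. The block changed no other count over all 82 genes by over 1.5 times, and counts by complex that it moved further stand beside their results. Median differences against monocytes under quantile normalization were -0.4639, -0.5235 and -0.3308 for CCR2+, MHCII-high and MHCII-low macrophages and -0.4283 for their mean, and after normexp they were -0.5764 and -0.3976 for MHCII-high and MHCII-low macrophages and -0.5141 for the mean. With a replicate left out, the subunit genes called ranged from 37 to 61 for CCR2+, 39 to 57 for MHCII-high and 20 to 36 for MHCII-low macrophages against monocytes and from 45 to 67 for their mean. Of all 22011 genes, 3868 to 5115, 3914 to 4885, 4014 to 4788 and 5042 to 6171 were then called, in the same order. Subunit genes called ranged from 0 to 1 for CCR2+ against either other macrophage group and were 0 for MHCII-high against MHCII-low. The medians then ranged from -0.8439 to -0.6501, -0.8615 to -0.6504, -0.6593 to -0.4408 and -0.7695 to -0.5734 against monocytes, in the same order. Between macrophage groups they ranged from -0.1203 to 0.0878 for CCR2+ minus MHCII-high, -0.3304 to -0.1744 for CCR2+ minus MHCII-low and -0.3025 to -0.0989 for MHCII-high minus MHCII-low. Genes that did not pass the threshold changed sign in places: Cox4i2 to 0.1027 with array weights and 0.1517 without monocyte replicate 2 (-0.3821 to 0.1517 with a replicate left out), Cox6b1 to 0.0453 and Atp5b to 0.0687 under quantile normalization, Ndufa4l2 to -0.0424 after normexp, and Sdhc to -0.0172 under median scaling and -0.0233 without monocyte replicate 2 (-0.0233 to 0.1103 with a replicate left out). The cause was not tested. Without a filter on dim probes, 29.0% of all called genes were higher.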

Other observations

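Enzymes of the tricarboxylic acid cycle, which supply complexes I and II with electrons, were called in both directions between the mean of the macrophage groups and monocytes, at a share near that of all genes (27.6%). Of 18 measured, 2 were higher and 4 lower, with a median difference of -0.30. With the slide as a block 8 were lower, where 21.99% of all genes were. Citrate synthase, Cs, which starts the cycle, was lower at -0.84 ± 0.18 (adjusted p = 0.0027, limma), and Dld, a subunit shared by several dehydrogenases, was lower at -0.77 ± 0.18 (adjusted p = 0.00397). Idh2, a mitochondrial isocitrate dehydrogenase that makes NADPH, was higher at 0.78 ± 0.16 (adjusted p = 0.00133). Its level was 1.91, 1.52, 1.76 and 1.80 in CCR2+ macrophages, 2.81, 2.31, 2.58 and 2.29 in MHCII-high macrophages, 2.97, 2.30, 2.69 and 2.56 in MHCII-low macrophages, and 1.67, 1.32, 1.71 and 1.33 in monocytes. The CCR2+ arrays overlapped the monocytes, and the arrays of the CCR2-negative populations did not.

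Of 20 regulators of mitochondrial genes, 3 were higher and 2 lower, with a median difference of -0.05, a share near the 27.6% of all genes called. Tfam, which packages mitochondrial DNA and starts its transcription, had levels of -2.27, -2.72, -2.32 and -1.95 in CCR2+ macrophages, -1.22, -2.05, -0.54 and -1.86 in MHCII-high macrophages, -1.59, -1.48, -1.89 and -2.91 in MHCII-low macrophages, and -0.58, -0.23, -1.20 and -1.04 in monocytes. It was lower at -1.14 ± 0.30 (adjusted p = 0.00917, limma), in contrast to the mitochondrially encoded subunits, of which 0 were lower in the same comparison. Myc, a growth regulator, was higher at 3.62 ± 0.37 (adjusted p = 2.03e-06), with 1 of 4 monocyte arrays above background, so its size is uncertain. Perm1, known from muscle, was at least 1.74-fold higher, with 0 monocyte arrays above background, and was kept only through the macrophages. Nrf1 and Gabpa, whose motifs were searched in the promoters, had differences of -0.07 and 0.14 and did not pass the threshold.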
